A study of Mus musculus with 2 samples.

Results

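The keratin genes of the mouse lie in clusters on chromosomes 11 and 15, and CTCF binding across both clusters was mapped in newborn heart. Members were all protein-coding genes of GENCODE M21 on chromosomes 1 to 19 whose name is Krt followed by a digit (the rule itself uses no measured value). This gave 53 of 20807 protein-coding genes, 27 on chromosome 11 and 26 on chromosome 15. CTCF summits were taken within 10 kb of each gene's 5' end and across both clusters with 100 kb on either side. The 2 libraries form 1 group: chromatin immunoprecipitation and sequencing with a CTCF antibody on heart tissue of the B6NCrl strain at postnatal day 0. Both libraries carry the same tissue sample and donor identifier in the labels, so differences between them may be technical only, and sex was not collected. The deposited values are peak lists: the optimal list of 44533 peaks, a conservative list, and relaxed lists of 300000 peaks for replicate 1, for replicate 2 and for both together. They give no read depth and no RNA, so neither the counting error of a signal nor the level of any keratin or heart marker transcript is known here, and with 1 group no test between conditions could be made.

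Keratins are the intermediate filament proteins of epithelial cells. An acidic type I keratin pairs with a basic type II keratin, and the pairs differ between simple, basal, suprabasal, mucosal and hair-forming epithelia. Most type I genes sit side by side on mouse chromosome 11 and most type II genes on chromosome 15, where the type I gene Krt18 lies beside its partner Krt8. Cardiomyocytes build their intermediate filaments from desmin instead, while the mesothelial covering of the heart is known for simple epithelial keratins such as Krt8, Krt18 and Krt19. CTCF is a zinc finger protein that binds a directional DNA motif, anchors chromatin loops and can insulate enhancers from promoters.

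The sequences at 10 of the summits in and beside the clusters are shown because the results below turn on them. They include the only site within 5 kb of a keratin 5' end and a coding exon site. Others are weak sites, strong sites and sites at the cluster edges. Each sequence is 40 bases of the reference genome GRCm38 (mm10), written 5' to 3' on the strand of the core. The best match to the 14-base CTCF core consensus is in capitals.
Krt28 and Krt10, chr11:99379750-99379789, plus strand: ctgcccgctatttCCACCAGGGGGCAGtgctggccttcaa
Krt12, chr11:99413415-99413454, plus strand: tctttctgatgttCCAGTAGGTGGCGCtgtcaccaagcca
Krt9 and Krt14, chr11:100200279-100200318, plus strand: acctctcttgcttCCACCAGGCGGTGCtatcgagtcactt
Right of Krt42, chr11:100282168-100282207, minus strand: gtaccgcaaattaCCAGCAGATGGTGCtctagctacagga
Right of Krt42, chr11:100295483-100295522, minus strand: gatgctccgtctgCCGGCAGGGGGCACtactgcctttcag
Left of Krt80, chr15:101315949-101315988, minus strand: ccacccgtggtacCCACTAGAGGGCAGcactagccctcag
Left of Krt80, chr15:101339717-101339756, plus strand: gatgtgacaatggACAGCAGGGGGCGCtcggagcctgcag
Krt88, chr15:101453536-101453575, minus strand: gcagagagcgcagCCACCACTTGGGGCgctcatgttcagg
Between Krt78 and Krt8, chr15:101984498-101984537, minus strand: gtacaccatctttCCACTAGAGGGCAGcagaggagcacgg
Krt18 and Krt8, chr15:102018251-102018290, minus strand: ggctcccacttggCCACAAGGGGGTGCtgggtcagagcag
The cores beside Krt28, beside Krt12, between Krt78 and Krt8 and at the first listed site left of Krt80 match the consensus with 0 mismatches, while the core in the coding exon of Krt88 has 3. The same 14 bases are the core at the first listed site left of Krt80 and at the site between Krt78 and Krt8. These stand towards opposite ends of the chromosome 15 region. The sharing is not particular to this region, since these bases are the core at 203 optimal peaks. The stronger site right of Krt42 and the Krt88 site hold 2 equally good matches each, of which 1 is shown.

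CTCF summits lay at a distance from the 5' ends of keratin genes, although some stood in the gene bodies. Of the 53 keratin genes, 17 (32.1%) had an optimal summit within 10 kb of the 5' end, where 51.9% of all protein-coding genes on chromosomes 1 to 19 had one. None had a summit within 1 kb, against 21.9% of all genes, and Krt28 alone (1.89%) had one within 5 kb, against 39.2%. At 50 kb the order turned: 50 keratin genes (94.3%) had a summit, against 83.7% of all genes. The 3 without one at 50 kb were Krt75, Krt39 and Krt1, whose nearest summits lay 53.92, 52.99 and 51.81 kb away.

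The distance from the keratin 5' end to the nearest summit ran from 4.87 kb at Krt28 to 53.92 kb at Krt75. Its median was 14.7 kb, against 9.03 kb for all genes, and was 17.5 kb on chromosome 11 and 14.4 kb on chromosome 15. By distance class, 16 keratin genes (30.2%) had their nearest summit 5 to 10 kb away, against 12.7% of all genes, and 21 (39.6%) had it 20 to 50 kb away, against 15.9%. Beyond 50 kb were 3 (5.66%), against 16.3%, so keratin genes were gathered at middle distances, with smaller shares than all genes at both ends. The nearest summit was upstream of the gene for 29 members and downstream for 24. Just inside the 10 kb limit were Krt18 at 9.90 kb and Krt6a at 9.95 kb, and just outside were Krt7 at 10.05 kb and Krt81 at 10.2 kb. Neighbouring genes share summits, so the members are not independent of each other.

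**Figure D1:**
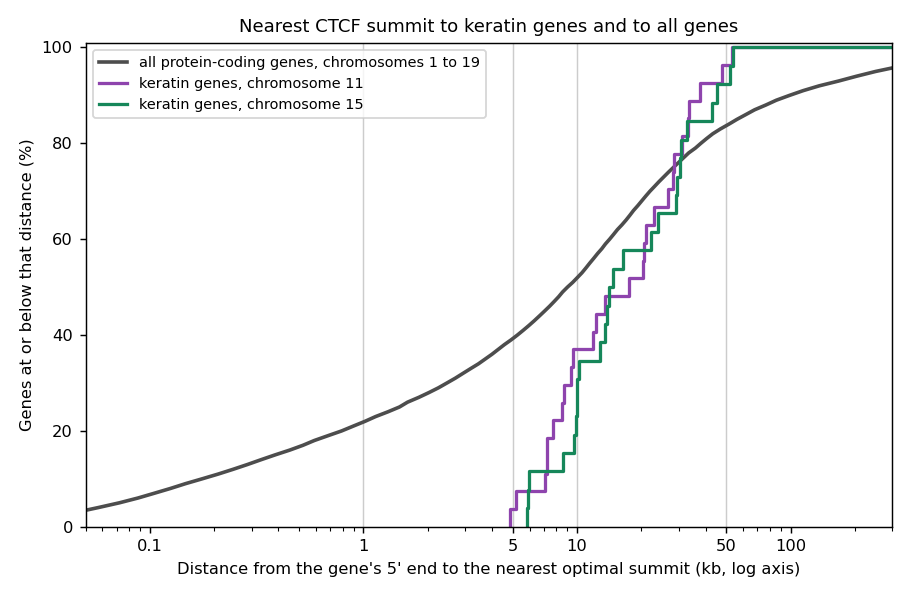
Share of genes (y axis, percent) whose nearest optimal CTCF summit lies within the distance on the x axis (kb, log scale) for all protein-coding genes and for the keratin genes of each cluster. The keratin curves start at 4.87 kb, reach 32.1% together at 10 kb where all genes stand at 51.9%, and pass them by 50 kb.

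Of the genes on chromosome 11, 10 of 27 (37.0%) had a summit within 10 kb, and of those on chromosome 15, 7 of 26 (26.9%). Both shares were below the 51.9% of all genes. By role, the counts were 2 of 5 simple epithelial keratins, 2 of 3 basal, 2 of 5 suprabasal, 2 of 4 mucosal and corneal, 1 of 5 wound and appendage, 1 of 7 inner root sheath, 4 of 15 hair shaft and 3 of 9 other keratins. The basal group was the only role above the share of all genes, with 3 members.

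Among the simple epithelial keratins, which line ducts, gut and mesothelium, Krt18 had a summit 9.90 kb upstream of its start. Signal here is the value the authors gave each peak, with no stated scale. At this site it was 11.1 in replicate 1 and 14.98 in replicate 2 (13.02 ± 2.78, SD, n = 2). In the optimal list, which was called on both libraries, it was 24.5. Krt8, the partner of Krt18 on the other side of this summit, had its 5' end 13.8 kb from it and so counted as without. The optimal list's median signal was 60.8, which puts the Krt18 site in the weaker part of the list. Krt20, a keratin of the intestinal lining, had a summit in its own coding exon 7.23 kb downstream of its start, with a signal of 14.03. That peak was matched in replicate 2 at 11.8 and had no match in replicate 1. Krt7, a keratin of ductal epithelium, and Krt19, the small simple epithelial type I keratin, had their nearest summits at 10.05 and 20.54 kb.

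Krt5 and Krt14 form the filament pair of basal keratinocytes, and each had a summit within 10 kb. The Krt5 site, 8.64 kb from its start and shared with Krt6a, had a signal of 23.4 in replicate 1 and 10.9 in replicate 2 (17.1 ± 8.79, SD, n = 2). The Krt14 site, 7.23 kb from its start and shared with Krt9, had 12.1 and 16.6 (14.4 ± 3.21, SD, n = 2). In the optimal list the values were 34.3 and 29.2, both under the list's median. The replicates were ordered in opposite directions at these sites, so the sites' own order is within the spread between libraries. Krt15, the additional type I keratin of basal cells, had its nearest summit 33.28 kb away.

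Suprabasal keratins replace the basal pair as keratinocytes mature. Krt10, the main type I keratin of suprabasal epidermis, lay 9.59 kb from the site it shares with Krt28, and its partner Krt1 lay 51.81 kb from any summit. Krt9, the keratin of thick palm and sole skin, stood 7.07 kb from the site it shares with Krt14. Krt2, of the upper epidermis, and Krt77 had their nearest summits at 45.28 and 32.9 kb.

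In the mucosal and corneal group, Krt12, the keratin of the corneal epithelium, had a site of 55.2 in replicate 1 and 38.5 in replicate 2 (46.8 ± 11.8, SD, n = 2), and 95.2 in the optimal list. This site lies downstream of the gene, and the weaker site in Krt20 lies on its upstream side. Krt76, a keratin of the hard palate, had a site at 9.69 kb with 31.6 and 15.1 (23.4 ± 11.7, SD, n = 2). Krt4 and Krt13, the filament pair of mucosal epithelium, had none, with nearest summits at 22.13 and 47.64 kb.

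The strongest site near any keratin start was that of Krt28, a type I keratin of the hair follicle's inner root sheath. It had a signal of 74.7 in replicate 1 and 65.7 in replicate 2 (70.2 ± 6.39, SD, n = 2), and 140.2 in the optimal list. The site lies 4.87 kb upstream of Krt28 and between it and Krt10. Krt28 also carried 2 summits in its own body, at 57.5 and 14.6 in the optimal list. The other inner root sheath keratins on chromosome 11, Krt25, Krt26 and Krt27, had their nearest summits at 11.94, 26.68 and 13.54 kb, and Krt71, Krt72 and Krt73 on chromosome 15 at 29.16, 13.57 and 29.46 kb.

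Hair shaft keratins build the hard filaments of hair, and they formed the largest role group. Krt83 had the strongest site among them, with 42.1 in replicate 1 and 35.2 in replicate 2 (38.7 ± 4.88, SD, n = 2). Krt33a had 18.5 and 9.67 (14.1 ± 6.21, SD, n = 2), and Krt86 had 16.8 and 10.9 (13.9 ± 4.17, SD, n = 2). Krt83 was thus higher than Krt33a and Krt86 in both libraries, while the latter overlapped each other. Krt31 had 7.10 and 6.88 (6.99 ± 0.163, SD, n = 2) at a site of 15.7 in the optimal list, among the weakest in either cluster. The Krt86 summit lies in the gene's body and within 1 kb of the 5' end of the noncoding gene Gm49501, and it was the only summit inside either cluster that counted as promoter.

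Of the wound and appendage keratins, which are induced in injured epidermis and present in nail and follicle, Krt6a had a summit and Krt6b, Krt16, Krt17 and Krt75 did not. Krt6a, at 9.95 kb, relied on the site nearer to Krt5. Among the other keratins, Krt88 had the strongest site, in its own coding exon 5.81 kb from its start, with 59.0 in replicate 1 and 56.8 in replicate 2 (57.9 ± 1.51, SD, n = 2). Krt24 had 48.5 in both libraries (48.5 ± 0.0449, SD, n = 2) at its nearer site and 38.8 and 33.2 at a second one. Krt222 had 21.2 and 21.1 (21.2 ± 0.0176, SD, n = 2). At Krt88, Krt24 and Krt222 the libraries were within 3 units of each other at the nearest site.

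**Figure D2:**
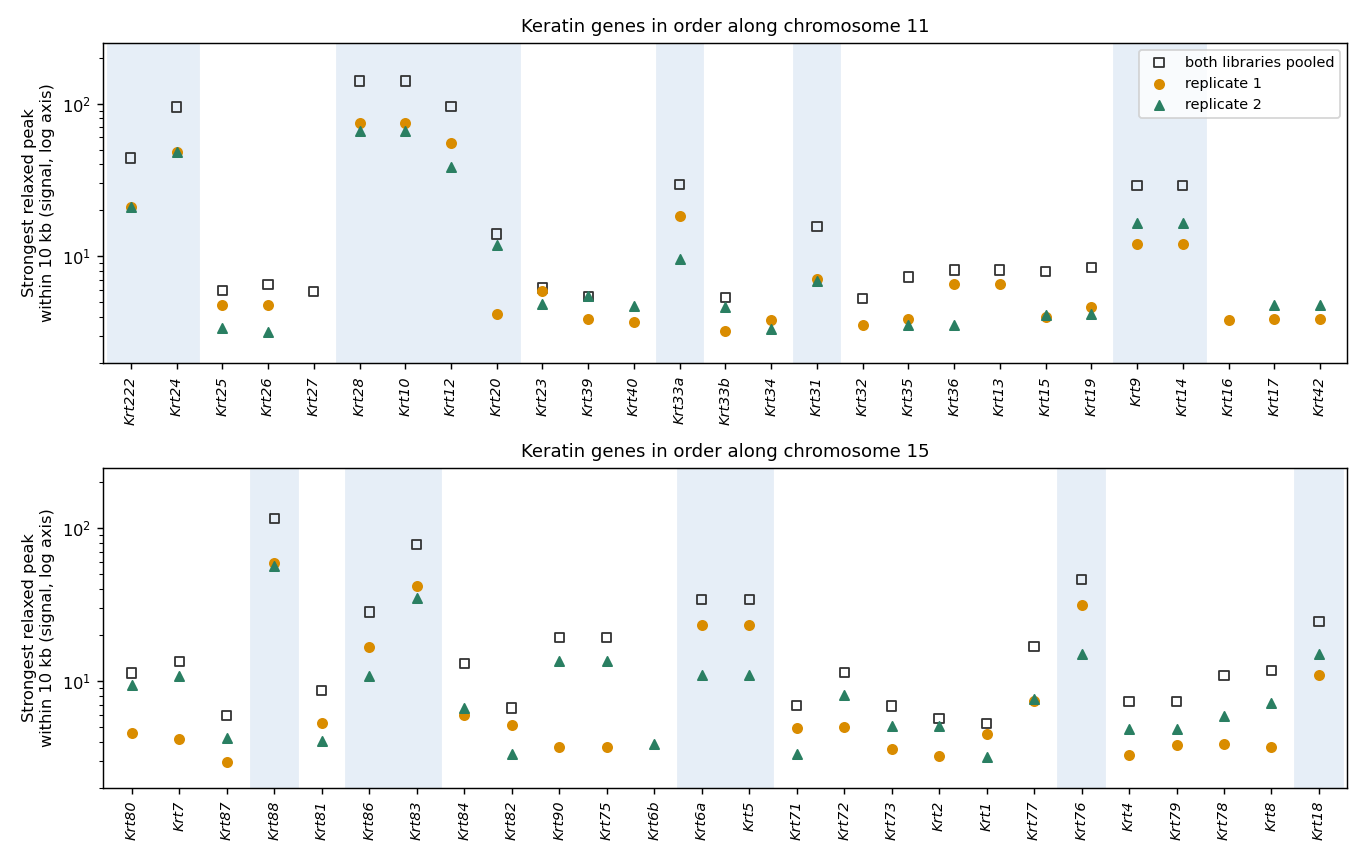
Strongest relaxed peak within 10 kb of each keratin 5' end, as deposited signal on a log axis, for replicate 1, replicate 2 and both together, with genes in chromosome order and shading on the 17 members that have an optimal summit there. The shaded members reach 140.2 at Krt28, and no unshaded member passes 19.4.

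Of the 36 keratin genes without an optimal summit within 10 kb, 30 had a relaxed peak of both libraries together there, and Krt40, Krt34, Krt16, Krt17, Krt42 and Krt6b had none. The strongest relaxed peak near each of the 30 had a median signal of 7.35, from 5.31 to 19.4, where the relaxed list of both libraries has a median of 6.63. These are values near the bulk of a list that includes background. The highest was shared by Krt90 and Krt75, with 3.72 in replicate 1 and 13.6 in replicate 2, so it rests on replicate 2. Krt77 came next, with 7.43 and 7.62 and 17.0 together, and was called in the conservative list.

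By list, 15 of the 17 members were called in the optimal list, the conservative list and the strongest 44533 peaks of each library, and Krt20 and Krt31 were called in the optimal list but not in all the others. Krt80, Krt7, Krt84, Krt90, Krt75, Krt72 and Krt77 were called only outside the optimal list. The other 29 keratin genes were called in none. The conservative list gave 18 members, against 51.1% of all genes, replicate 2's strongest peaks gave 21, against 52.2%, and those of replicate 1 gave 15, against 51.9%. Raising the threshold to peaks at or above the optimal median left 6 members (11.3%), against 32.4% of all genes. Taking the 5' end of any transcript gave 21 members, against 61% of all genes.

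The sites near keratin starts were weaker than the other sites of the same clusters. The 17 members drew on 17 distinct summits, since 4 summits served a pair of genes each and some genes had several. Those summits had a median signal of 44.0, from 14.03 to 140.2, and 6 of them (35.3%) were at or above the list's median. The other 24 summits inside the clusters had a median of 119, and 17 of them were at or above the list's median. No test was made, because sites of a locus are not replicates.

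**Figure D3:**
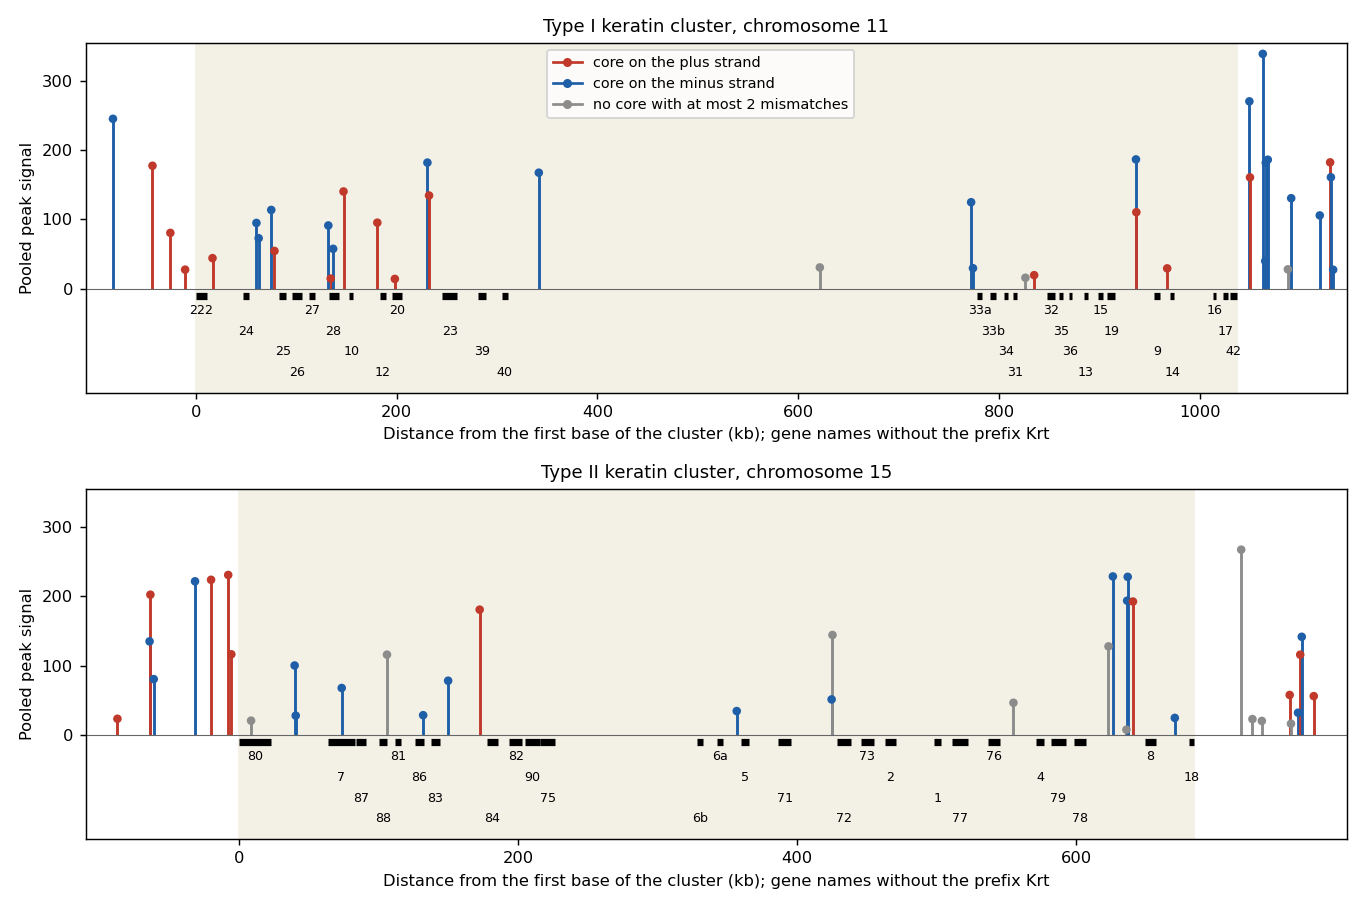
Optimal CTCF summits along the keratin clusters of chromosome 11 and chromosome 15 with 100 kb on each side, as distance from the left end of the first keratin gene (x axis, kb) and deposited signal (y axis), coloured by the strand of the core, with keratin genes drawn below. The tallest sites stand at the ends, 338.9 right of Krt42 on chromosome 11 and 267.3 right of Krt18 on chromosome 15, and the wide empty stretch on chromosome 11 holds keratin-associated protein genes and no keratin.

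Across both clusters and their flanks there were 74 optimal summits, 38 on chromosome 11 and 36 on chromosome 15, of which 41 were inside the clusters and 33 in the flanks. Inside the chromosome 11 cluster, 22 summits gave 21.2 per Mb, against 26.7 per Mb over the whole chromosome. Inside the chromosome 15 cluster, 19 summits gave 27.8 per Mb, against 17.8 per Mb over that chromosome. The genome stood at 16.3 per Mb. The inside of the clusters was therefore below its own chromosome on 11 and above it on 15, and above the genome in both.

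The flanks were richer. On chromosome 11 the left flank, beyond Krt222, held 4 summits (40 per Mb) and the right flank, beyond Krt42, held 12 (120 per Mb). On chromosome 15 the left flank, beyond Krt80, held 8 (80 per Mb) and the right flank, beyond Krt18, held 9 (90 per Mb). Taken as 1 set, flank summits had a median signal of 131, against 78.1 inside the clusters and 60.8 over the list. The flanks were not alike in this: the medians were 129 left and 161 right of the chromosome 11 cluster and 169 left of the chromosome 15 cluster. The flank beyond Krt18 had a median of 55.9, below the inside of its cluster (78.1) and below the list, with 3 of its 9 summits at or above the list's median. Of all 74 summits, 45 (60.8%) were at or above the list's median, where 50% of all peaks are. The strongest 10% of the list held 14 of the 74 (18.9%), made up of 9 of 33 flank summits (27.3%) and 5 of 41 inside (12.2%).

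Of the 10 strongest summits, 8 were in the flanks. The strongest lay 25.65 kb upstream of Krt42, with 183.6 in replicate 1 and 156.7 in replicate 2 (170.1 ± 19.01, SD, n = 2), and 338.9 in the optimal list, where it ranked 61. The second, 12.32 kb upstream of Krt42, had 147.8 and 124.5 (136.2 ± 16.5, SD, n = 2). Both stand between Krt42 and the bulk of the right flank, where Eif1, a translation initiation factor gene, is the next protein-coding gene. On chromosome 15 the summit 37.69 kb from Krt18 had 155.8 and 112.8 (134.3 ± 30.4, SD, n = 2), with the start of Eif4b, another translation initiation factor gene, 7.90 kb away. The ranges of the libraries overlap between this site and the second one at Krt42.

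At the other ends, the strongest summit beyond Krt222 lay in an intron of Ccr7, a chemokine receptor gene, with 113.4 in replicate 1 and 130.5 in replicate 2 (122.0 ± 12.1, SD, n = 2). Beyond Krt80, 4 of the 10 strongest summits stood in 1 flank, at 230.8, 223.8, 221.6 and 202.3 in the optimal list. The nearest of these to a keratin was 30.42 kb from the start of Krt80, with 122.6 and 110.1 (116.3 ± 8.80, SD, n = 2). The weakest of the 4 lay 0.32 kb from the start of Atg101, an autophagy gene.

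The other 2 of the 10 strongest were inside the chromosome 15 cluster, between Krt78 and Krt8. The first, 19.59 kb from Krt78, had 130.3 in replicate 1 and 99.5 in replicate 2 (114.9 ± 21.8, SD, n = 2). The second, 19.97 kb from Krt8, had 127.3 and 103.9 (115.6 ± 16.5, SD, n = 2), so the libraries do not separate them. In all, 6 summits stood between these genes, and 5 of them had signals of 127.7 to 228.7 in the optimal list. The remaining one, at 7.50, was matched in replicate 2 alone and was the weakest of the 74. On its far side the group is followed by Krt8 and Krt18, with the single weak summit between their starts.

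Most summits inside the clusters stood between genes. Of the 41, 30 (73.2%) were intergenic, where 35.0% of all optimal peaks are, and 1 (2.44%) was at a promoter, against 14.1%. Another 7 were in introns and 3 in coding exons, the latter in Krt28, Krt20 and Krt88. Keratin gene bodies held 7 of the 41 (17.1%), while they make up 23.1% of the length of the clusters. Those bodies were Krt28 with 2 summits and Krt20, Krt80, Krt7, Krt88 and Krt86 with 1 each.

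The 14-base core consensus was searched on both strands within 50 bp of each summit. With at most 2 mismatches it was present at 61 of the 74 summits (82.4%), against 73.5% of all optimal peaks. Windows of the same length 1000 bp to the left and right held it at 1 and 2 of the 74, against 2.79% and 2.94% around all peaks. With at most 1 mismatch the share was 50% against 42.4% of all peaks, and with at most 3 it was 95.9% against 91.3%. Inside the clusters the share at 1 mismatch was 36.6%, below that of all peaks, and in the flanks it was 66.7%. On chromosome 11, 35 of 38 (92.1%) had the core with at most 2, and on chromosome 15, 26 of 36 (72.2%). Summits with a core had a median signal of 110 and those without 27.9, against 78.7 and 31.3 over all peaks. Inside the chromosome 15 cluster this difference was not seen: the medians were 78.1 with a core and 81.0 without. There 13 of 19 summits had a core, and the few without ran from 7.50 to 144.1, so the second median is loose. A core with 0 mismatches was present at 6 of the 74 (8.11%), against 11.6% of all peaks. Near the keratin starts, 14 of the 17 summits had a core of at most 2 mismatches. The exceptions were those of Krt31, Krt88 and Krt76, whose best matches had 3.

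Strong signal was also seen without a close core. The summit at Krt88, 115.8 in the optimal list, and the one beyond Krt18 at 267.3 had best matches with 3 mismatches each. A strong site with an exact core was the summit 12.84 kb downstream of the start of Krt84, a hair keratin gene, with 90.5 in replicate 1 and 89.8 in replicate 2 (90.1 ± 0.524, SD, n = 2) and 180.7 in the optimal list. The Krt9 and Krt14 summit had 2 mismatches and a signal of 29.2.

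Where loops form between CTCF sites, their cores tend to point towards each other, so the strands were read along each cluster. On chromosome 11, 34 summits had a single best core, 15 on the plus and 19 on the minus strand. Of the 33 neighbouring pairs, 9 were convergent (plus then minus), 9 divergent and 15 pointed the same way. On chromosome 15 there were 26, 10 plus and 16 minus, and of the 25 pairs 7 were convergent, 7 divergent and 11 the same. Over all optimal peaks, 24.5% of such pairs were convergent, 24.5% divergent and 51.1% the same. Convergent and divergent pairs alternate along a row of cores. Their numbers were equal in each cluster because its row started and ended on the same strand. The near-equal shares over all peaks also follow from this alternation, so only the share pointing the same way is free to differ. Inside the chromosome 15 cluster 2 cores were plus and 11 minus, while inside the chromosome 11 cluster the strands were 10 and 10. In the flank right of Krt42, 2 were plus and 8 minus. These are counts at single loci, with no test.

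Close pairs of summits were frequent in the flanks and inside the chromosome 15 cluster. Of the 74, 19 (25.7%) had another optimal summit within 1 kb, against 8.11% of all peaks. The share was 30.3% in the flanks (10 of 33) and 36.8% inside the chromosome 15 cluster (7 of 19). Inside the chromosome 11 cluster it was 9.09% (2 of 22), near that of all peaks. Near Krt19 such a pair had opposite cores. The summit with a minus core had 90.7 in replicate 1 and 96.1 in replicate 2 (93.4 ± 3.82, SD, n = 2). The summit with a plus core had 65.0 and 44.4 (54.7 ± 14.5, SD, n = 2). The first was the higher in both libraries. Between Krt78 and Krt8 the paired summits of 193.7 and 228.1 in the optimal list both had minus cores.

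Gaps of over 100 kb between neighbouring summits were counted over each cluster with its flanks. They made up 4 of 37 gaps (10.8%) on chromosome 11 and 2 of 35 (5.71%) on chromosome 15. Over the genome the share was 12.8%. All 6 lay inside the clusters, so the shares inside alone were higher than these and were not compared with the genome. Of the 6, 4 held keratin starts. On chromosome 15, 184.3 kb without an optimal summit held the starts of Krt84, Krt82, Krt90, Krt75, Krt6b and Krt6a, and another 129.7 kb held Krt72, Krt73, Krt2, Krt1, Krt77 and Krt76. The strongest relaxed peak in the first reached 19.4. Each stretch had 1 peak in the conservative list, near Krt84 and near Krt77. On chromosome 11 the longest stretch was 279.9 kb and held no keratin gene but 26 other protein-coding genes, 13 of them keratin-associated protein genes, which encode the matrix proteins of hair. Its strongest relaxed peak was 9.62, and 3.16% of all gaps in the genome were longer. A 109.3 kb stretch beside it held Krt23, Krt39 and Krt40, and one of 101.4 kb held Krt32, Krt35, Krt36, Krt13, Krt15 and Krt19.

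The keratin-associated protein genes divide the chromosome 11 cluster between Krt40 and Krt33a. That stretch of 468 kb, chosen after its values were seen, had 4 summits (8.55 per Mb) and the rest of the cluster 18 (31.6 per Mb). Outside that stretch, which holds no keratin gene, the cluster was thus above the 26.7 per Mb of its chromosome. Over each cluster with its flanks, long stretches included, the median gap between neighbouring summits was 12.7 kb on chromosome 11 and 11.5 kb on chromosome 15, against 20.75 kb over the genome.

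Neighbouring keratin genes were often not parted by a summit. Of 51 intervals between neighbouring keratin 5' ends, 21 (41.2%) contained an optimal summit, against 63.6% of intervals between neighbouring protein-coding genes, which were longer (median 39.0 kb against 17.8 kb). The part of spacing in this difference was not tested. Summits thus cut the keratin genes into 23 blocks, of which 12 held a single gene. The largest held 6 genes each: Krt32, Krt35, Krt36, Krt13, Krt15 and Krt19 on chromosome 11, and the 2 groups in the long stretches of chromosome 15. The first of these joins hair shaft keratins with mucosal, basal and simple epithelial ones. Filament partners lie on different chromosomes, except Krt8 and Krt18, whose starts are parted by the weak summit of 24.5.

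The libraries gave like values across the clusters. Of the 74 summits, 72 had a match within 100 bp in both libraries, the exceptions being the summit in Krt20 and the weakest of those between Krt78 and Krt8. Over these 72 the replicates' signals had a Spearman correlation of 0.96, given as a description, since the sites share libraries and control. Replicate 1 was the higher at 55 and replicate 2 at 17. The strongest 44533 peaks of replicates 1 and 2 had medians of 32.8 and 27.6, so replicate 1 was also the higher over that whole list. The median log2 ratio of replicate 2 to replicate 1 was -0.19, from -1.10 at the site of Krt5 and Krt6a to 1.13 at a site near Krt31, with no scaling between libraries. Of the sites near keratin starts, those of Krt5 and Krt76 and the weaker site in Krt28 differed most, with log2 ratios of -1.10, -1.07 and -1.02, and each was higher in replicate 1. The conservative list held 70 of the 74.

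**Figure D4:**
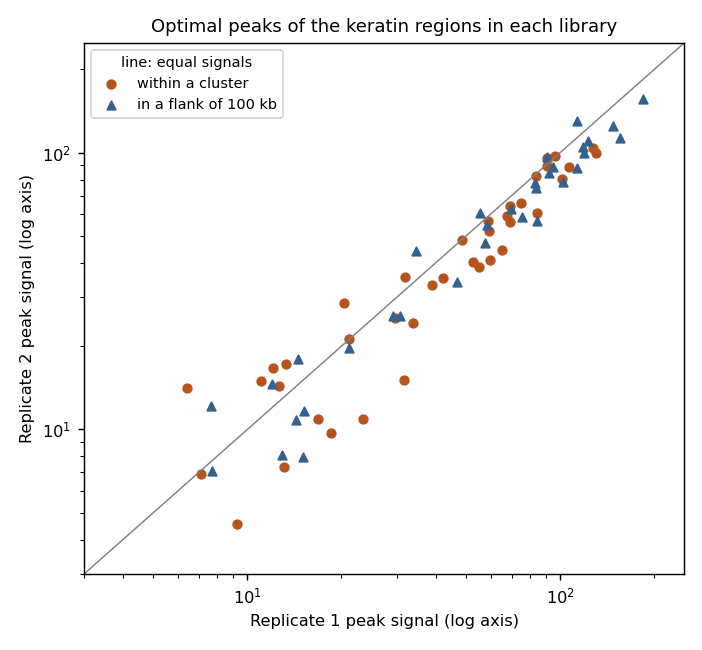
Deposited signal of each matched summit of the keratin clusters and flanks in replicate 1 (x axis) and replicate 2 (y axis), both on log axes. Symbols tell summits within a cluster from those in a flank of 100 kb. The 72 points follow the diagonal and widen at low signal, with log2 ratios from -1.10 to 1.13.

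Other gene families give the scale of the keratin count. Of the keratin-associated protein genes, 14 of 57 (24.6%) had a summit within 10 kb, again with 0 within 1 kb, and 66.7% had one within 50 kb, below the 94.3% of keratins. Krtap3-1, Krtap1-5 and Krtap1-4 had the strongest site of that family and share it, at 167 in the optimal list. The Vmn2r genes, a clustered family of pheromone receptors, had 1 of 119 (0.84%), with Vmn2r7 at 119.7. Their median distance to a summit was 209.3 kb, against 14.7 kb for keratins, although both are tandem arrays.

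Intermediate filament genes outside the clusters were nearer to CTCF. Of 16, 10 (62.5%) had a summit within 10 kb, led by Bfsp1 of the lens at 268.8, Nes of progenitor cells at 234.5 and Gfap of astrocytes at 229.7. Des, which encodes the desmin of heart muscle, had none. Of 28 genes for the proteins that attach keratin filaments or regulate epithelial genes, 15 (53.6%) had one, close to the 51.9% of all genes. The strongest were at Plec, which encodes the linker protein plectin (187), at Ovol1, an epithelial transcription factor gene (186), and at Tchp, whose product trichoplein binds keratin filaments (149).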

How the data were processed

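The deposited files are 5 narrowPeak lists on mm10, called by the authors against a control not used here, with the optimal and conservative lists passed through an irreproducible discovery rate filter, per the text beside them and the labels. Aligner and caller: not given in the sources used here. Each deposited signal has no stated scale; signals of the list of both libraries are larger than those of 1 library, so levels were compared only within a list. The deposited score column was not used for any result. Summits are the start plus the offset given by the authors. Replicate values are those of the strongest relaxed peak with a summit within 100 bp.

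Genes came from GENCODE M21 and sequence from GRCm38, read with pysam 0.24.0 under Python 3.11.15 (pandas 2.3.3, numpy 2.4.6, matplotlib 3.10.9). The core consensus was searched within 50 bp of summits with at most 2 mismatches. A summit within 1000 bp of any gene's 5' end counted as promoter, and the rest by coding exon first, then any exon, then intron. Background values use the 44518 optimal peaks on chromosomes 1 to 19, X and Y. The rule for the members uses names and positions only, but it and the role and comparison lists were chosen with earlier results of these data known. Any keratin could be named; of other genes, those next to the cluster ends or the 10 strongest summits and the 3 strongest of each comparison list. Des and Gm49501 were named after their values were seen. Of 90 listed names, 2 (Krt74, Krt85) matched no protein-coding record. The core search and a window search were tested on simulated data. The window calls of the genes used separate code that was not tested in this way. Read depth is unknown. No count was tested, since there is 1 group of 2 libraries.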

Additional observations from a re-analysis of the deposited data

How the results depend on the processing

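No paired analysis was possible because there is 1 group. The count of 17 keratin genes with a summit within 10 kb became 1 at 5 kb, 50 at 50 kb, 6 with peaks at or above the median signal and 0 at 1 kb (a window chosen after seeing the data), and was 15 to 21 with either library left out. On chromosome 11 the density of 30.7 summits per Mb became 29.1 with the conservative list, 21.2 with no flank, 27.3 with flanks of 50 kb, 36.2 with 200 kb and 19.4 with peaks at or above the median (29.1 to 29.9 with a library left out). On chromosome 15 the 40.7 per Mb became 27.8 with no flank, 33.1 and 46.1 with flanks of 50 and 200 kb and 23.7 with peaks at or above the median (40.7 to 47.5 with a library left out). Of the summits, 82.4% had a core; this was 78.7% in the conservative list, 50% at 1 mismatch, 95.9% at 3, 75.7% within 25 bp and 79.7% to 83.3% with a library left out. The median signal of 97.7 was 78.1 with no flank and 40.4 to 56.6 in single libraries, whose own list medians were 27.6 and 32.8. Convergent pairs on chromosomes 11 and 15 numbered 10 and 8 at 3 mismatches, and 7 and 7 in the conservative list. Divergent pairs had the same numbers, which is no result, since each row of cores started and ended on the same strand. The causes were not tested. Unknown depth limits what can be said of weak sites and of genes without one.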

Other observations

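The conservative list held 5 summits in or beside the keratin clusters that the optimal list did not. Their signals were 12.4 right of Krt42, 12.99 left of Krt80, 13.1 near Krt84, 17.0 near Krt77 and 15.2 near Krt78. Those near Krt84 and Krt77 were matched in both libraries, at 5.98 and 6.67 and at 7.43 and 7.62 in replicates 1 and 2. The other 3 were matched in replicate 2 alone, at 7.003, 12.4 and 7.86.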
